A study of Mus musculus with 35 samples.

Results

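miR-455 is a microRNA whose hairpin lies inside the collagen gene Col27a1, and the members described here are its 2 mature arms, mmu-miR-455-5p and mmu-miR-455-3p (5p and 3p below), together with the messenger RNA of Col27a1. They were chosen by name: 2 of the 485 mature miRNAs in the miRNA file and 1 of the 18947 genes in the mRNA file. All 3 are present, and both arms passed the filter on low counts that kept 436 miRNAs for testing.

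A miRNA hairpin is cut into a duplex of a 5p and a 3p strand, and a strand loaded into an Argonaute protein pairs through its seed, bases 2 to 8, with sites in messenger RNAs and lowers their output. miR-455 is known from brown fat, where it has been described as promoting brown adipocyte differentiation through Hif1an, Runx1t1 and Necdin (Ndn), and from cartilage. Col27a1 encodes the chain of type XXVII collagen, a fibrillar collagen described mainly in cartilage.

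Small RNA came from fat pads of C57BL/6J males aged 13 weeks, with 3 libraries per depot. The 6 depots are iBAT, eWAT, mWAT, aWAT, iWAT and cWAT. For mRNA there are 4 samples of iBAT and 4 of eWAT, from C57BL/6J males aged 15 weeks. The labels of another assay of the series, Argonaute CLIP, whose 9 samples were not analysed here, spell out interscapular brown fat and epididymal white fat. The labels name no transgene, deletion or drug for any of these groups, and all are whole tissue. The protocol text says that the mice for miRNA were kept at room temperature, and also names inguinal pads of mice kept at 4 °C for 1 week. It does not tie those pads to a depot label, and cWAT is not spelled out, so housing could not be assigned here. No label says that the libraries of a depot came from separate animals, so the p-values measure only the spread between these samples. In whole tissue, fewer cells of a type and less RNA per cell cannot be told apart.

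The reads behind the miRNA libraries numbered 1293407 to 6816555, with the lowest in iBAT 1 and the highest in cWAT 3. The depth of the mRNA libraries is unknown. All 10 brown adipocyte marker genes listed for this check were higher in iBAT and all 9 white or visceral fat markers were lower in the authors' deposited table, which also listed all 13 skeletal muscle markers as higher in iBAT (over all its genes, 20.9% were called higher and 27.1% lower). Its header gives no direction. Ucp1 and Cidea, both among the brown adipocyte markers above, are positive in it, so a positive value is taken here to mean a higher level in iBAT. The direction of these genes was thus set by that choice and is no check of it.

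The mature sequences are shown because the arms have different seeds and so different sets of possible target sites. They come from RefSeq (GRCm38.p6), where both arms were matched by name, and capitals mark the seed, bases 2 to 8.
miR-455-5p: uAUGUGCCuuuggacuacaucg
miR-455-3p: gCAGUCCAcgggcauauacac
miR-5129-3p: aAUGUGCCugugcaucucuucc
The 5p arm has 22 bases and lies at chr4:63256867-63256888. The 3p arm has 21 bases and lies at chr4:63256904-63256924, so that 15 bases separate the arms on the plus strand. Among the mature mouse miRNAs of the RefSeq table, miR-5129-3p alone has the 5p seed, and none has the 3p seed. miR-5129-3p is not among the miRNAs measured here.

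The hairpin gene Mir455 spans 82 bases (chr4:63256851-63256932) within Col27a1 (ENSMUSG00000045672, chr4:63214009-63334991), 42.8 kb from the start of a gene of 121.0 kb. miR-455 is known as an intronic miRNA of this gene.

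Both arms of miR-455 were higher in brown fat than in every white depot. The 5p arm had normalized counts (reads divided by a size factor per library) of 241, 188 and 257 in iBAT 1 to 3. In eWAT it stood at 11.6, 17.9 and 20.8. The groups did not overlap, and the lowest iBAT library was 2.90 times the highest of the 15 white libraries, mWAT 3 at 64.8. The 3p arm had normalized counts of 690, 2252 and 2451 in iBAT, and of 167, 161 and 165 in eWAT. Here iBAT 1 stood well below the other two iBAT libraries, yet its value was still 1.27 times the highest white library, mWAT 3 at 543. Of the 436 tested miRNAs, 14.4% had every iBAT library above every white library.

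Against eWAT, the 5p arm was higher in iBAT by 3.71 ± 0.28 (SE) on the log2 scale, 13.1-fold (limma on log2(normalized count + 1) with Benjamini-Hochberg adjustment over all tested miRNAs, adjusted p = 2.82e-08). The 3p arm was higher by 3.24 ± 0.38, 9.45-fold (limma adjusted p = 4.62e-06). In that comparison 55% of tested miRNAs were called at an adjusted p under 0.05, and 25.5% were called higher in iBAT. Of the 436 differences, the 5p arm's was number 18 from the highest and the 3p arm's number 24. Leaving out iBAT 1 (iBAT replicate 1) raised the 3p fold from 9.45 to 14.2 and left the 5p fold at 12.7.

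The smallest difference was against mWAT. There the 5p arm was 4.34-fold higher in iBAT (2.12 ± 0.28 on the log2 scale, limma adjusted p = 1.29e-05), and the 3p arm 3.35-fold (1.75 ± 0.38, limma adjusted p = 0.0013), where 55.5% of miRNAs were called and 21.6% were called higher in iBAT. Against iWAT the folds were 6.62 (5p) and 6.78 (3p), with 54.4% of miRNAs called and 24.5% called higher in iBAT. Against aWAT they were 4.71 and 5.70 (53.2% called, 22.2% higher), and against cWAT 5.19 and 8.10 (47.5% called, 19.7% higher). Adjusted p-values of these 6 limma tests lay between 1.13e-06 and 6.19e-05, and in each of them all 3 iBAT libraries were above all 3 white ones. Without iBAT 1 the 3p folds became 5.04 against mWAT, 10.2 against iWAT, 8.57 against aWAT and 12.2 against cWAT. Both arms were among the 55 miRNAs (12.6% of those tested) that were called higher in iBAT than in each white depot.

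The authors' deposited table gives like values for the same libraries. It lists the 5p arm at 3.75 ± 0.30 (SE) and the 3p arm at 3.45 ± 0.37 for iBAT over eWAT on the log2 scale, with adjusted p-values of 4.33e-34 and 3.65e-19. Its lowest listed values for iBAT are those against mWAT, 2.12 ± 0.29 (5p) and 1.94 ± 0.37 (3p) in the authors' deposited table.

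**Figure D1:**
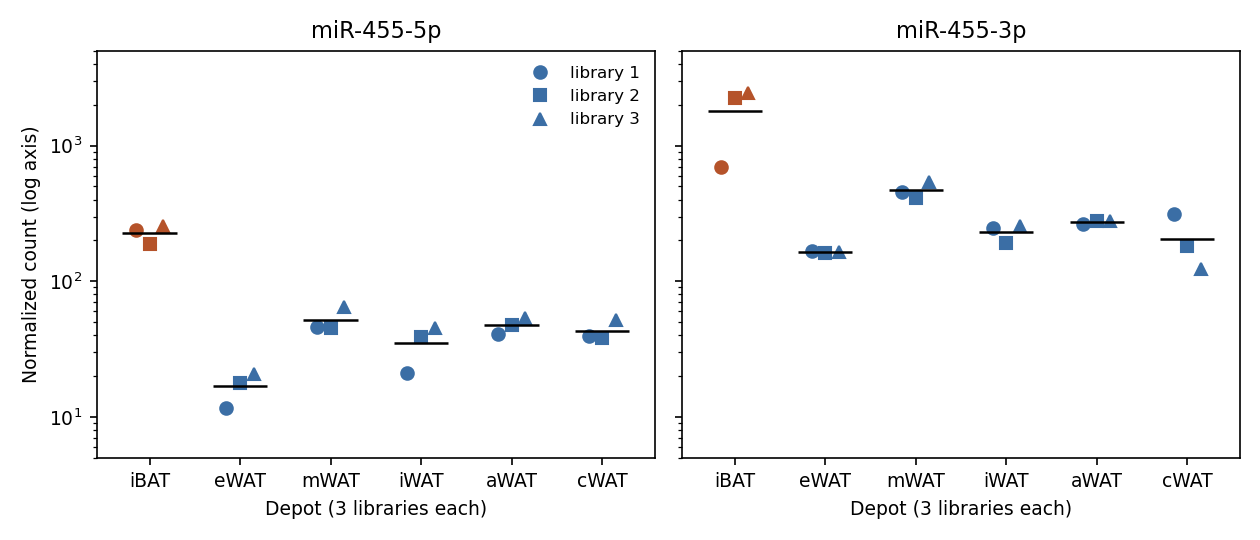
Normalized counts of miR-455-5p (left) and miR-455-3p (right) on a log axis in 3 libraries of each of 6 depots, with lines at the depot means. All iBAT libraries lie above all white libraries for both arms, and iBAT 1 (690 for 3p) lies below iBAT 2 and 3.

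Among white depots, the 5p arm was lowest in eWAT. Its means were 52.1 ± 11.01 (SD, n = 3) in mWAT, 47.5 ± 6.3 in aWAT, 43.1 ± 7.2 in cWAT, 34.9 ± 12.3 in iWAT and 16.8 ± 4.7 in eWAT, after 228 ± 36 in iBAT. The 4 neighbours in this order from mWAT down to iWAT did not differ beyond their spread (limma adjusted p between 0.649 and 0.807), while eWAT was below iWAT (1.98-fold, limma adjusted p = 0.0204; 21.1% of miRNAs were called in that pair). The shares of miRNAs called were 23.6% between mWAT and aWAT, 15.4% between aWAT and cWAT and 0% between cWAT and iWAT. The eWAT libraries were below all those of mWAT (46.2, 45.3 and 64.8), aWAT (41.02, 47.9 and 53.6), cWAT (39.5, 38.5 and 51.5) and iWAT (21.1, 38.7 and 44.9). The step to iWAT was small: the lowest iWAT library, 21.1, was close to the highest eWAT library, 20.8, and the call was lost without eWAT 1 (adjusted p = 0.112), iWAT 2 (0.0805) or iWAT 3 (0.0935). Against eWAT the 5p arm was 3.02-fold higher in mWAT (adjusted p = 0.000399), 2.78-fold in aWAT (0.00121) and 2.53-fold in cWAT (0.00303, limma in each case). The shares of miRNAs called in these pairs were 29.1%, 25.9% and 20%.

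The 3p arm had a somewhat different order, with mWAT at the top of the white depots. Its means were 468 ± 68 (SD, n = 3) in mWAT, 273.3 ± 8.8 in aWAT, 231 ± 35 in iWAT, 206 ± 97 in cWAT and 164.4 ± 3.1 in eWAT, after 1798 ± 964 in iBAT. By library it stood at 453, 409 and 543 in mWAT and at 263, 277 and 279 in aWAT. In iWAT it stood at 247, 191 and 257, and in cWAT at 313, 182 and 124. The cWAT libraries were the most scattered of the white depots and overlapped those of eWAT, iWAT and aWAT. mWAT was above eWAT (2.82-fold, limma adjusted p = 0.00759) and above cWAT (2.42-fold, adjusted p = 0.018; 36.2% of miRNAs were called in that pair). mWAT over iWAT just missed (2.02-fold, limma adjusted p = 0.0534), in a pair where 33% of miRNAs were called, although the 3 libraries of each did not overlap. The difference of mWAT from its neighbour aWAT did not pass (1.70-fold, limma adjusted p = 0.158), nor did those between the neighbours from aWAT down to eWAT (adjusted p between 0.732 and 0.852). In these pairs 23.6% (mWAT and aWAT), 11% (aWAT and iWAT), 0% (iWAT and cWAT) and 20% (cWAT and eWAT) of miRNAs were called.

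Of the 10 pairs of white depots, 4 were called for 5p and 2 for 3p, where 21.5% of all miRNA tests in those pairs were called. All 4 for 5p were between eWAT and another white depot. Without iBAT 1, 5 pairs were called for 3p, and without mWAT 3 or cWAT 2 only 1. The call of mWAT over cWAT was lost without mWAT 3 (adjusted p = 0.057), cWAT 2 (0.0546) or cWAT 3 (0.0832). Over all 6 depots the limma F test gave adjusted p = 7.67e-07 for 5p and 2.49e-05 for 3p, with 74.3% of miRNAs called. Whether the arms differ from each other in their white depot pattern was not tested.

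In the authors' deposited table cWAT and iWAT were also compared. The 5p arm was listed at 0.37 ± 0.31 (SE) for cWAT over iWAT on the log2 scale with no adjusted p, and the 3p arm at -0.17 ± 0.38 with adjusted p = 0.85. The limma fit did not call either arm between these depots (adjusted p = 0.649 for 5p and 0.852 for 3p). In that pair the fit called 0 of the 436 tested miRNAs.

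The 3p arm supplied most miR-455 reads in every library. The 5p arm took 7.69% of miR-455 reads in iBAT 2 (213 reads of 5p and 2557 of 3p; exact Clopper-Pearson 95% interval 6.72 to 8.75) and 9.47% in iBAT 3 (8.06 to 11.05). In iBAT 1, the library of the lowest depth, it took 25.8% (21.5 to 30.5), from 100 reads of 5p and 287 of 3p. The interval of iBAT 1 does not meet those of iBAT 2 and 3, so counting error does not cover the gap; these intervals hold counting error alone. cWAT 3, the library of the highest depth, was the other library with a high share, 29.3% (25.4 to 33.5), beside 11.2% in cWAT 1 and 17.4% in cWAT 2. The remaining white libraries lay between 6.498% in eWAT 1, from 18 reads of 5p, and 16.9% in iWAT 2.

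By depot the 5p share averaged 9.23% ± 2.44 (SD, n = 3) in eWAT, 9.96% ± 0.70 in mWAT, 13.2% ± 4.7 in iWAT, 14.8% ± 1.3 in aWAT, 14.3% ± 10.004 in iBAT and 19.3% ± 9.2 in cWAT. The log2 ratio of 5p to 3p in iBAT differed from that of the 15 white libraries by -0.02, with means of -2.78 and -2.76 (exact two-sided permutation test over 816 arrangements, p = 0.962; the smallest p possible is 0.00123). Without iBAT 1 the difference was -0.65, toward 3p in iBAT (exact permutation p = 0.169). The balance of arms in iBAT thus rests on iBAT 1, and neither difference passed the test. The shift of iBAT 1 from the mean of iBAT 2 and 3 was 1.90 on the log2 scale for miR-455. Among 91 hairpins with both arms at a mean normalized count of at least 20, it was number 3 from the highest, with a median of 0.02 and 8 hairpins beyond 1 in either direction. Over all 436 tested miRNAs, 27 stood in iBAT 1 at no more than 50% of both other iBAT libraries, against 3 in iBAT 2 and 13 in iBAT 3. The same count was 28 in aWAT 1 and 26 in cWAT 1, so by it iBAT 1 did not stand apart from all other libraries. The part of depth in these values was not tested.

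**Figure D2:**
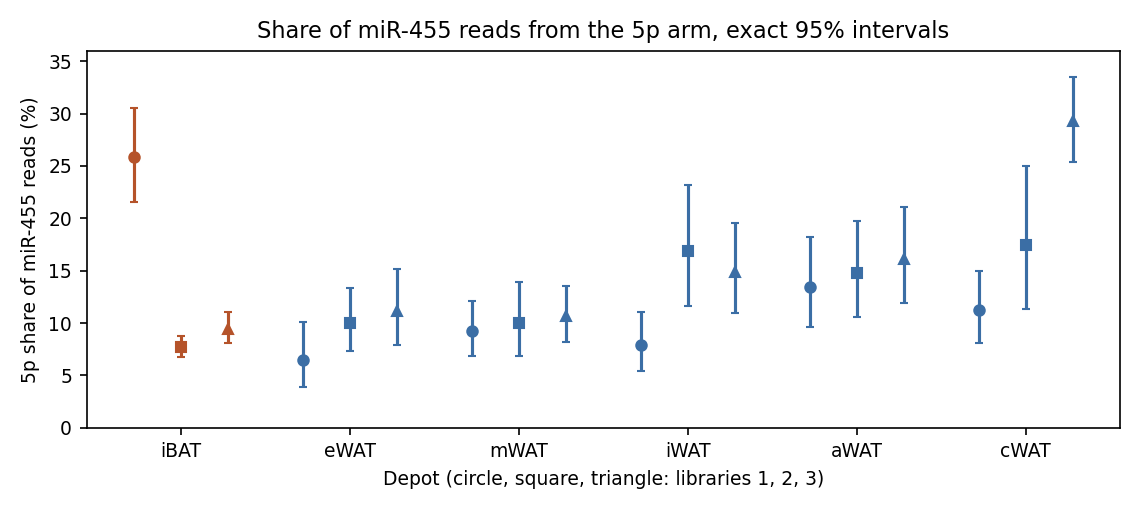
Share of miR-455 reads that came from the 5p arm in each library (%), by depot, with exact 95% binomial intervals. iBAT 1 (25.8%) and cWAT 3 (29.3%) stand above the other 16 libraries, which lie between 6.498% and 17.4%.

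Within white fat the arms varied together in part. Over the 15 white libraries Pearson's r between log2 values of 5p and 3p was 0.54 (permutation p = 0.0378) and Spearman's rho 0.61 (permutation p = 0.0197). Without eWAT 1 and eWAT 2, the libraries farthest from the 5p median, r was 0.42 (permutation p = 0.155) and rho 0.54 (p = 0.0603), so the relation rests in part on eWAT. The 3 iBAT libraries form a cluster of their own and were left out. The permutations moved libraries freely across the white depots. Their p-values therefore do not separate differences between depots from joint variation within a depot. The arms of a library share its depth and size factor. This was the only pair of measures so tested.

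The miRNAs whose levels over the 18 libraries were most like the 5p arm were miR-1941-3p (Pearson's r = 0.89), miR-30e-3p (0.86), miR-676-5p (0.86), miR-378b (0.85), miR-378a-3p (0.85) and miR-203-3p (0.85). For the 3p arm they were miR-455-5p itself (0.84), then miR-378a-5p (0.83), miR-27b-3p (0.81), miR-30e-3p (0.81), miR-1941-3p (0.78) and miR-203-3p (0.76). These values are descriptions over libraries that share their size factors, and the iBAT libraries carry much of them. Over the 15 white libraries alone, miR-27b-3p kept r = 0.80 with 3p and miR-1941-3p r = 0.66 with 5p. miR-378a-5p (-0.08), miR-30e-3p (-0.05) and miR-203-3p (-0.24) had values near or below 0 with 3p. miR-378a and miR-30e come from hairpins of their own, in the genes Ppargc1b and Nfyc.

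The sequences of 4 of them are shown, with the seed again in capitals, because these seeds differ from each other and from those of both arms.
miR-1941-3p: cAUCUUAGcaguaucucccau
miR-30e-3p: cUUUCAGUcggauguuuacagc
miR-27b-3p: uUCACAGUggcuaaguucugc
miR-203-3p: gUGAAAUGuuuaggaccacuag
miR-1941-3p was at 101.2 ± 6.2 normalized counts (SD, n = 3) in iBAT and 1.4 ± 1.7 in eWAT. In iBAT 1 it stood at 98.6, beside 108 and 96.7 in iBAT 2 and 3, so it did not share the low value of miR-455-3p in that library.

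Markers of other tissues were read in the same libraries. The 7 muscle miRNAs of the list summed to 18257 to 30575 normalized counts in iBAT and to 3235 to 5992 in eWAT, and 5 of 6 tested were called higher in iBAT. Their sum ran from 3305 to 23316.5 in iWAT, from 6199 to 29505 in cWAT and from 6247 to 8811 in mWAT. It was highest in aWAT, at 75766 to 573842, where the 5p arm stood at 41.02 to 53.6 and the 3p arm at 263 to 279. In that depot the 5p arm was 2.78-fold above eWAT, as given above, and both arms were below iBAT. The part of muscle in these values was not tested. The pair of miR-140 arms, a miRNA of cartilage, summed to 2552 to 2615 in iBAT, 2043 to 2236 in eWAT and 4674 to 5190 in mWAT. Of the pair, miR-140-5p was higher in iBAT than in eWAT (1.06 ± 0.14 on the log2 scale, limma adjusted p = 1.34e-05) and miR-140-3p was not called (0.16 ± 0.10). All 10 miRNAs of the brown fat list were called higher in iBAT than in eWAT (background 25.5%). Both endothelial miRNAs were called higher in iBAT, with sums of 318038 to 347786 there and 182084 to 209991 in eWAT. The 3 red blood cell miRNAs were all called higher too, with sums of 23179 to 35269 in iBAT and 12078 to 21460 in eWAT. Of 6 immune miRNAs 1 was called higher and 2 lower, with sums of 20453 to 22394 in iBAT and 23832 to 26725 in eWAT. The epithelial list, with 5 of 6 called lower, was at 15.8 to 38.7 in iBAT and 2597 to 7864 in eWAT. Of all 436 tested miRNAs, 111 were called higher and 129 lower in iBAT than in eWAT. The part of these cell types in the values of miR-455 was not tested.

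The host gene was higher in brown fat by a size close to that of its miRNA. The authors' deposited table lists Col27a1 at a log2 fold change of 3.33 ± 0.37 (SE), 10.1-fold, for iBAT over eWAT (adjusted p = 6.6e-19). Its base mean, the authors' average of normalized counts over the 8 mRNA samples, was 1573, which placed it at number 4078 of 18947 genes. Its fold change was number 316 from the highest, in a table where 48% of genes were called and 20.9% were called higher in iBAT. Values of single mRNA samples were not at hand, so their overlap and SD are not given. The miRNA values for the same depots, 3.71 ± 0.28 and 3.24 ± 0.38, come from other libraries and from younger mice, and a difference between host and miRNA was not tested.

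Other miRNAs that lie within genes were compared with their hosts to place this pair. Of 69 tested arms in 35 measured host genes from a list of 46 pairs, miR-455-5p had the third highest difference between iBAT and eWAT and miR-455-3p the next, after the arms of miR-378a. Col27a1 had the third highest fold change of the hosts in the authors' deposited table. The miRNA was above its host by 0.38 for 5p and below it by -0.09 for 3p on the log2 scale, where the median distance over the 67 other arms was 0.52. Without iBAT 1 the 3p arm too was above the host, by 0.50, and the 5p arm by 0.34. In 22 arms both miRNA and host were called, 20 with the same sign, 13 of these higher in iBAT. Between these depots 55% of all tested miRNAs were called (25.5% higher in iBAT) and 48% of all genes (20.9% higher). Across the 69 arms the correlation was r = 0.87, and 0.85 without miR-455; arms of 1 hairpin and hairpins of 1 host are not independent, and some mature miRNAs have more than 1 hairpin.

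The nearest comparisons differ in how far miRNA and host go together. The arms of miR-378a, from the Ppargc1b gene of a transcriptional coactivator, were higher in iBAT by 3.85 ± 0.19 (3p) and 4.11 ± 0.26 (5p; SE), and Ppargc1b by 4.93 ± 0.21 in the authors' deposited table. miR-30e-5p was higher by 2.75 ± 0.12, miR-30e-3p by 2.48 ± 0.14 and miR-30c-5p by 1.37 ± 0.14. Their listed host Nfyc, a subunit of the factor NF-Y, was higher by 1.47 ± 0.14 in the authors' deposited table. miR-335-3p (-3.30 ± 0.27) and miR-335-5p (-2.52 ± 0.24) were lower in iBAT, as was their imprinted host Mest (-3.19 ± 0.44 in the authors' deposited table). miR-107-3p, named after its value was seen, had the next highest difference after miR-455 (3.02) and the widest distance from its host of the 69 arms, -2.63. That host, the pantothenate kinase gene Pank1, had the highest fold change of the hosts (5.65 in the authors' deposited table).

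**Figure D3:**
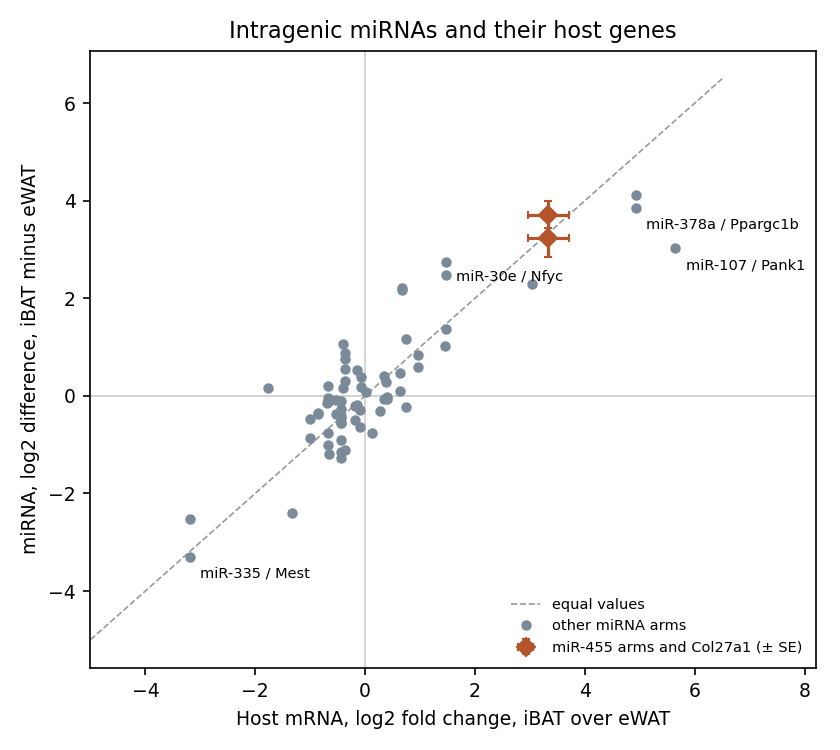
Log2 difference between iBAT and eWAT of 69 miRNA arms (vertical) against the deposited log2 fold change of the host gene (horizontal), with SE bars for miR-455 and a dashed line of equal values. Both arms of miR-455 lie near the line at a host value of 3.33.

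Col27a1 moved against most of its own collagen class. In the authors' deposited table, 2 of the 11 fibrillar collagen genes were higher in iBAT, 6 were lower and 3 did not pass (median -0.61; all genes: -0.10, with 20.9% called higher and 27.1% lower). The other gene that was higher was Col11a2 (2.58 ± 0.30, adjusted p = 2.05e-17), a chain of cartilage collagen XI with a base mean of 115. The genes of collagen I, III and V, the main fibrils of soft connective tissue, were lower: Col1a1 (-0.61 ± 0.18), Col1a2 (-0.87 ± 0.15), Col3a1 (-0.78 ± 0.17), Col5a1 (-1.23 ± 0.15), Col5a2 (-1.13 ± 0.12) and Col5a3 (-1.44 ± 0.15) in the authors' deposited table. Col24a1, the closest relative of Col27a1, was not called at 0.11 ± 0.65 with a base mean of 19.3, nor were Col2a1 and Col11a1.

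**Figure D4:**
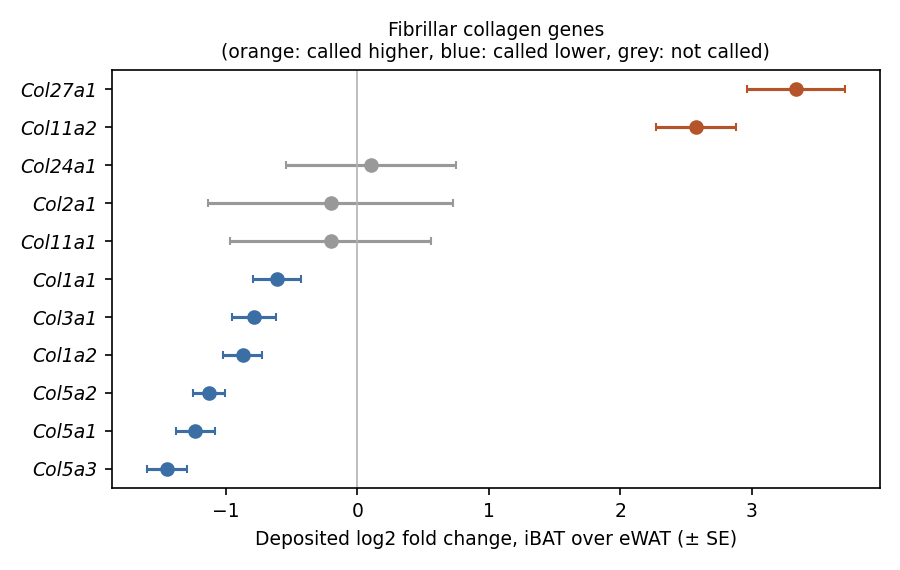
Deposited log2 fold changes of 11 fibrillar collagen genes for iBAT over eWAT with SE bars, in order of size. Col27a1 (3.33) and Col11a2 (2.58) are called higher, while 6 genes of collagens I, III and V are called lower.

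Genes that modify, cut and crosslink collagens were mostly lower in iBAT too. The authors' deposited table has 1 of 27 members higher, 18 lower and 8 that did not pass (median -1.06), where 20.9% of all genes were higher and 27.1% lower. Those lower included Adamts2, which removes procollagen ends (-1.82 ± 0.20, adjusted p = 7.02e-19), the lysyl hydroxylase gene Plod2 (-1.57 ± 0.21), the prolyl hydroxylase gene P4ha2 (-1.26 ± 0.17) and P3h3 (-1.50 ± 0.22) in the authors' deposited table. The gene that was higher, Colgalt2, adds galactose to collagen (1.45 ± 0.27, adjusted p = 2.74e-07 in the authors' deposited table).

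Cartilage markers were read because Col27a1 is described mainly there. Of 15 listed chondrocyte markers 10 had a row, and of these the authors' deposited table has 1 (Col11a2) higher, 4 lower and 5 that did not pass, not far from the 20.9% and 27.1% of all genes. Acan and Col2a1 had base means of 4.59 and 3.76, against a median of 343 over all genes. The highest base means of the list were 256 for Sox9 and 115 for Col11a2. Comp (-2.02 ± 0.62), Chad (-1.67 ± 0.56), Sox9 (-1.47 ± 0.42) and Cnmd (-1.40 ± 0.42) were lower in iBAT in the authors' deposited table.

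Factors described upstream of miR-455 or Col27a1 included genes of both directions: the authors' deposited table has 4 of 11 higher in iBAT, 4 lower and 3 that did not pass (median 0.05), beside 20.9% higher and 27.1% lower over all genes. Sox6 (3.66 ± 0.44, adjusted p = 2.21e-16) and Sox5 (1.34 ± 0.37) were higher, while Sox9, which acts with both in cartilage, was lower as given above. Cebpb, a transcription factor of early adipocyte differentiation (2.39 ± 0.38), and Prdm16, a regulator of brown fat identity (2.39 ± 0.41), were higher in the authors' deposited table. The ligand gene Bmp7, described as an inducer of miR-455 in brown preadipocytes, was lower in iBAT (-2.84 ± 0.44, adjusted p = 1.42e-10), as were the receptor genes Bmpr1b (-2.85 ± 0.69) and Acvr1 (-0.89 ± 0.28) in the authors' deposited table. By the authors' deposited table Creb1 (0.05 ± 0.17), Bmpr1a (-0.41 ± 0.26) and Bmpr2 (0.46 ± 0.21, adjusted p = 0.0557) did not pass, and Bmpr2 was called higher once fold changes were centred on the median of all genes (adjusted p = 0.0231).

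Reported targets of miR-455 included genes higher and lower in brown fat. The authors' deposited table has 4 of 9 genes higher in iBAT, 1 lower and 4 that did not pass (median 0.17). Over all genes 20.9% were higher and 27.1% lower. Of the 3 described in brown adipogenesis, Hif1an, which encodes the asparagine hydroxylase that inhibits HIF, was higher (0.95 ± 0.16, adjusted p = 6.88e-09) and Ndn, which encodes necdin, was higher (0.76 ± 0.30, adjusted p = 0.0186) in the authors' deposited table. Runx1t1, a corepressor gene, did not pass in the authors' deposited table (-0.55 ± 0.37, adjusted p = 0.174). Of those described in cartilage, Epas1, which encodes HIF-2 alpha (1.08 ± 0.17), and Smad2, a mediator of TGF-beta signals (0.66 ± 0.18), were higher, and Chrdl1, which encodes a BMP antagonist, was lower (-4.01 ± 0.36, adjusted p = 6.68e-29) in the authors' deposited table. Acvr2b (0.11 ± 0.86, base mean 9.02), Hdac2 (0.07 ± 0.18) and Hdac8 (0.17 ± 0.17) did not pass in the authors' deposited table. Levels of messenger RNA do not show translation, and binding of Argonaute was not analysed here.

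Genes of the pathway that has been drawn from Hif1an to AMP-activated kinase and PGC-1 were higher in iBAT in 7 of 12 cases and lower in none in the authors' deposited table (median 0.64), against 20.9% higher and 27.1% lower among all genes. The coactivator genes Ppargc1b (4.93 ± 0.21) and Ppargc1a (3.58 ± 0.31) led, followed by the kinase subunit genes Prkaa2 (catalytic, 2.27 ± 0.32) and Prkag2 (regulatory, 2.19 ± 0.18) in the authors' deposited table. Prkab1 (0.77 ± 0.17), Prkag1 (0.52 ± 0.17) and Hif1an made up the rest in the authors' deposited table. Hif1an is also counted among the reported targets above and Ppargc1a among the brown adipocyte markers. Prdm16 is both an upstream factor and a brown adipocyte marker, and Sox9 both an upstream factor and a chondrocyte marker. Col11a2 and Col2a1 are in both the fibrillar collagen and the chondrocyte list. The counts of these lists are therefore not separate. Prkaa1 (0.42 ± 0.48), Prkab2 (0.00 ± 0.15), Prkag3 (-0.58 ± 0.52), Hif1a (0.17 ± 0.30) and Arnt (0.46 ± 0.27) did not pass in the authors' deposited table. The 13 skeletal muscle markers were higher in iBAT by a median of 7.20 in the same libraries, and their part in the values of Col27a1 and of these genes was not tested.

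The genes beside Col27a1 on chromosome 4 had lower values than it. Of the 10 nearest measured protein-coding genes, 5 on each side, the authors' deposited table has 1 higher in iBAT, 3 lower and 6 that did not pass (median -0.40). These counts are near the shares of all genes, 20.9% higher and 27.1% lower. The nearest, the acute phase gene Orm1, begins 9.57 kb beyond Col27a1 and stood at -0.76 ± 0.39 (adjusted p = 0.0667), and Orm2 and Orm3, near copies of it with which reads may be shared, stood at -1.02 ± 0.66 and -0.18 ± 0.45 in the authors' deposited table. The nearest on the other side, the kinesin gene Kif12, 41.9 kb away, was lower in the authors' deposited table (-7.17 ± 2.85, base mean 10.9). Whrn, 79.9 kb away, was the neighbour that was higher (0.73 ± 0.32, adjusted p = 0.0356 in the authors' deposited table).

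**Figure D5:**
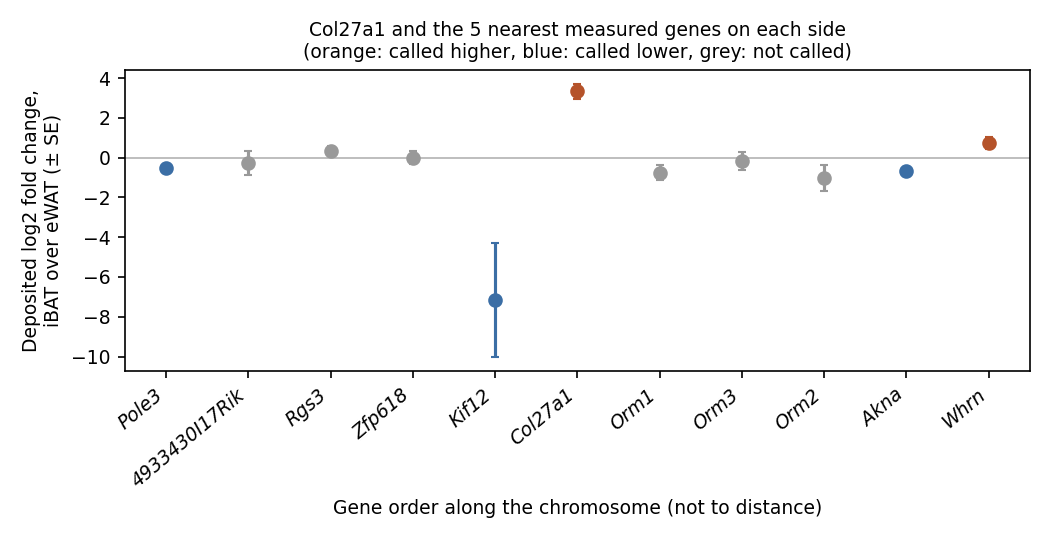
Deposited log2 fold changes, iBAT over eWAT, of Col27a1 and the 5 nearest measured genes on each side, in chromosome order with SE bars. Col27a1 stands at 3.33, and the 10 neighbours lie between -7.17 and 0.73.

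The Col27a1 promoter is shown because the gene and the miRNA within it were both higher in brown fat while most genes beside it were not. The RefSeq window (GRCm38.p6, chr4:63215162-63215461, plus strand) holds 250 bases before a start site and 50 after it, and capitals mark matches to the motifs searched. It lies inside the gene span given above, which begins at chr4:63214009. Its start site is therefore not the start from which the 42.8 kb were counted. Sequence outside the window, including all before chr4:63214009, was not searched.
Col27a1 promoter: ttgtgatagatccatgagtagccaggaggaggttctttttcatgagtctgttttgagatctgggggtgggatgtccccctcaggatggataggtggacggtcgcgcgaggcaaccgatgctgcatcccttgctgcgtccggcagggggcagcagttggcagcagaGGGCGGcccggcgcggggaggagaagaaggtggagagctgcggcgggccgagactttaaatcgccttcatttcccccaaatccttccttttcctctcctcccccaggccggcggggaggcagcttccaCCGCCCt
The window is 61.7% guanine or cytosine and has 18 CpG pairs, against medians of 52.7% and 7 over 32851 windows of the same length. Both strands were searched for the GC box GGGCGG, the cyclic AMP response element TGACGTCA and the shorter core within it, TGACG, the C/EBP motif TTGCNNAA, the SOX motif ACAAT, the box CCAAT that binds NF-Y, and the TATA box motif TATAAA. The GC box was found at 2 places, 1 on each strand, and 35.7% of all windows hold it. The others have no match in these letters. They occur in 1.79% (TGACGTCA), 20.8% (TGACG), 10.8% (TTGCNNAA), 31.02% (ACAAT), 37.4% (CCAAT) and 13.6% (TATAAA) of windows.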

How the data were processed

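TRIzol and RNeasy were used for RNA, then TruSeq kits for small RNA and for stranded total RNA libraries, per the labels' protocols. Tools listed in the submitters' processing notes are Novoalign, kallisto 0.45.0, DESeq and DESeq2, beside GRCm38 and mm10. Novoalign is a read aligner, and the assay it was used for was not established here. The counter of miRNA reads was not established either.

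Per the file headers, the deposited miRNA signal values are counts divided by size factors. Also deposited by the authors, per the file headers, are log2 fold changes with SEs, a test statistic (a score), p-values and adjusted p-values for 6 miRNA comparisons and 1 mRNA comparison. For mRNA no value per sample was used. Benjamini-Hochberg adjustment of the deposited mRNA p-values returned the adjusted ones within 2.4e-07, yet 10.7% of the p-values equalled those computed from the ratio of log2 fold change to SE (to within 0.01 in log10 units), so the latter were an alternative.

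Whole reads were recovered from the miRNA values, with 100% whole within 0.02 reads in each library. The smallest value was 1 read in 6 libraries and 2 reads in 12. filterByExpr of edgeR 4.0.16 on these reads kept 436 of 485 miRNAs. The main test was limma 3.58.1 (R 4.3.3), moderated with eBayes and its trend option and run on log2(normalized count + 1) over all 18 libraries (12 residual degrees of freedom), with calls at a Benjamini-Hochberg adjusted p under 0.05 per comparison. SEs and folds between depots come from the fit, on the log2(normalized count + 1) scale; means, SDs and ratios of single libraries come from normalized counts. Alternatives were the edgeR quasi-likelihood test and DESeq2 1.42.0 on recovered reads, other scalings, pseudocount, filter, trend, samples and a replicate block. The fit was tested on simulated data with known changes.

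Gene IDs were matched to symbols for 18758 of 18947 genes. The members, gene lists and host pairs were chosen with earlier results of these data known. The miRNAs called most alike are the 6 with the highest Pearson correlation with each arm over 18 libraries; every member of the short lists may be named, and of longer lists at most the 4 with the smallest p in each direction. Acan, Col2a1 and the neighbours of Col27a1 were named beside that rule.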

Additional observations from a re-analysis of the deposited data

How the results depend on the processing

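The 10 comparisons of the arms between iBAT and a white depot kept their direction and stayed past the threshold in all 270 alternative values (27 each), with log2 differences of 3.43 to 3.88 for 5p and 2.92 to 3.83 for 3p against eWAT; the highest adjusted p was 0.0268 (3p against mWAT). Leaving out 1 library at a time gave 3 to 4 called pairs of white depots for 5p and 1 to 5 for 3p; scaling by the recovered total of reads in place of size factors gave 1 pair for 3p. In the same 18 fits the iBAT minus white difference in the log2 ratio of arms ran from -0.65 to 0.38 (exact permutation p from 0.169 to 0.999). The cause of these shifts was not tested. With the replicate number as a block, the 5p arm in mWAT over iWAT passed (0.61 on the log2 scale, adjusted p = 0.0396, beside 0.107 without the block), and no other call of the arms changed. No label ties the numbers to a shared animal or batch. Deviations of same-numbered libraries correlated with a median r of 0.01 over 45 pairs, beside 0.03 over 90 pairs with other numbers. Of 18 libraries, 5 correlated best with their own number. With 3 libraries per depot these values cannot decide whether a number stands for a shared animal or batch. For 3p in mWAT over iWAT, edgeR (adjusted p = 0.0415), DESeq2 (0.0198) and TMM scaling (0.037) gave a call where the limma fit had 0.0534. Col27a1 kept its call with p from fold change over SE (adjusted p = 6.87e-18) and after centring (3.43, adjusted p = 6.76e-19), and the counts of the gene lists stayed within 1.5 times. Centring turned the split of all mRNA calls from 3965 higher and 5135 lower to 4246 and 4008. The 5p arm rests on few reads in white fat, 18 to 42 per library in eWAT and 23 in cWAT 2.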
